A study of Homo sapiens with 8 samples.

Results

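Amino acids enter and leave a cell through membrane transporters of several solute carrier families, and 10 of these genes are described here in MOLM-13 cells: SLC7A11, SLC7A5, SLC7A6, SLC3A2, SLC1A5, SLC1A4, SLC38A1, SLC38A2, SLC43A1 and SLC7A1. They were picked by name, as the rows of both deposited gene tables that carry these symbols, and they are 10 of 58302 genes listed. MOLM-13 is an established human acute myeloid leukaemia line. The cells carried either sh-circMYBL2, a short hairpin against a circular RNA of the MYBL2 gene, or the control hairpin sh-NC, and no other treatment or genotype is given in the labels. Each hairpin had 2 libraries of ribosome footprints, the fragments of RNA that ribosomes shield from nuclease, and 2 libraries of input RNA, 8 libraries in all. Labels do not say whether libraries came from separate cultures, so p-values measure only a spread that may be technical. Each group stands for 1 cell line and 1 hairpin.

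These transporters work in a few known ways. SLC3A2 is the glycosylated heavy chain (CD98, 4F2hc) that brings light chains such as SLC7A5, SLC7A6 and SLC7A11 to the plasma membrane. SLC7A5 and SLC7A11 are exchangers: the first lets large neutral amino acids such as leucine in, and the other takes up cystine for glutamate and so feeds glutathione synthesis. The transcription factor ATF4, made when amino acids are short or other stress acts through eIF2, is known to switch on many genes of this kind through C/EBP-ATF sites, and NFE2L2 acts on SLC7A11 through antioxidant response elements.

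Promoter sequences are shown for the 2 kinds of site named above, C/EBP-ATF sites and antioxidant response elements. Their part in the RNA changes given below was not tested. RefSeq windows of GRCh38.p14, from 250 bases before to 50 bases after a start site, were found for 9 of the 10 genes, all but SLC7A11, and came to 16 windows. The letters TGATGNAA, a C/EBP-ATF composite site searched on both strands, occurred in 5 of the 16 windows and in 5 of the 9 genes. Of all 35116 windows 3.62% held it, and of all 27305 genes 4.46%. The 5 sites follow in 30 bases each, 5′ to 3′ along the gene's strand, with the site in capitals; in SLC1A4 and SLC3A2 it lies on the opposite strand and so reads as its reverse complement.
SLC1A4: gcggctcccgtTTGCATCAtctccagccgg
SLC3A2: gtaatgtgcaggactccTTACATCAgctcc
SLC38A1: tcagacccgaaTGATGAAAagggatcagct
SLC7A1: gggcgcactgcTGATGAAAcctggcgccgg
SLC1A5: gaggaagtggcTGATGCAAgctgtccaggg
The SLC1A4 stretch is at chr2:64989381-64989410 on the plus strand and the SLC3A2 stretch at chr11:62881719-62881748 on the plus strand. The others lie on the minus strand, SLC38A1 at chr12:46266502-46266531, SLC7A1 at chr13:29595663-29595692 and SLC1A5 at chr19:46784893-46784922. Counted from the start site of its own window as base 1, the first base of the site was at -7 in SLC1A4, 38 in SLC3A2, -4 in SLC38A1, 8 in SLC7A1 and -97 in SLC1A5. SLC3A2 and SLC1A5 had 3 windows each, and SLC1A4 and SLC38A1 had 2 each. Which of these starts the cells use was not tested. A match of letters describes the window and does not show that a factor binds there. In the RNA test below SLC3A2, SLC38A1 and SLC7A1 passed, while SLC1A4 and SLC1A5 did not. SLC7A5 and SLC38A2 also passed, and their windows held no such match.

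The letters TGACNNNGC, the core of an antioxidant response element searched on both strands, occurred in 5 of the 16 windows, in SLC3A2, SLC7A1, SLC7A6, SLC7A5 and SLC1A5. This short core is common: 13.3% of all windows and 16.1% of all genes held it. Of these genes SLC7A6 and SLC1A5 did not pass the RNA test below. No such match shared bases with a match to the other motif in these windows. The 4 below are those nearest to a start site, with the core in capitals and read along the gene's strand. The SLC3A2 core also contains TGACTCA, the letters of an AP-1 site.
SLC3A2: cgagggtgggTGACTCAGCgtcctccttcc
SLC7A1: tgcccggcggTGACGCGGCcgagcgggccg
SLC7A6: cggcggcgggTGACGTGGCggggcggggcc
SLC7A5: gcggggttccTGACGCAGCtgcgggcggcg
They lie at chr11:62881652-62881681 on the plus strand, chr13:29595754-29595783 on the minus strand, chr16:68264487-68264516 on the plus strand and chr16:87869490-87869519 on the minus strand. The core began at -37 in SLC3A2, -85 in SLC7A1, -29 in SLC7A6 and -2 in SLC7A5. SLC7A1 is shown with the 250 bases before its start site, since its window held both motifs and is the gene's only one in the table. This stretch, chr13:29595689-29595938 on the minus strand, is 84.4% G and C, and the capitals mark the antioxidant response element core.
SLC7A1: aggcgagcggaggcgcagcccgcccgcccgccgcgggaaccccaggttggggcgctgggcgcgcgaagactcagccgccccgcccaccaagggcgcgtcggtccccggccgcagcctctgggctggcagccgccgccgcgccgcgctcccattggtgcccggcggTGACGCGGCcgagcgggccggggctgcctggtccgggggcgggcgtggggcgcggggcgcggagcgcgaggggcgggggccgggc

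Input RNA libraries held 13653712 and 14111532 reads on genes with sh-circMYBL2 and 13507446 and 14606311 with sh-NC. Footprint libraries were far shallower, with 222855 and 715090 reads with sh-circMYBL2 (libraries a and b, whose columns carry no replicate label) and 80159 and 300379 with sh-NC. MicroRNA genes took 32.8% and 12.2% of the footprint reads with sh-circMYBL2 and 42.7% and 57.2% with sh-NC, so reads on protein-coding genes came to 125761 and 584183 against 33708 and 88701. Replicates correlated across genes at r = 0.983 for RNA with either hairpin, and at 0.804 (sh-circMYBL2) and 0.575 (sh-NC) for footprints, which is a description over genes that are not independent. Of 12 myeloid markers 11 reached a mean of 1 FPKM, with CD14 below it; no marker of 7 for erythroid and 7 for lymphoid cells did, and of 7 for adherent cells 1 did, ACTA2. CircMYBL2 itself was not analysed here; RNA of its host gene MYBL2 was 3.53 and 3.72 FPKM with sh-circMYBL2 and 1.46 and 1.15 FPKM with sh-NC. The summed myeloid markers were 1008 to 1052 FPKM with sh-circMYBL2 and 819 to 860 FPKM with sh-NC, most of it LYZ. By the RNA test described below 3 of the 11 were called higher (FLT3, ITGAM and CEBPA) and 0 lower. Of all genes 4.92% were called higher and 3.96% lower. LYZ did not pass (log2 change 0.33, adjusted p = 0.0554, limma). MPO (-0.35), CD33 (-0.14), SPI1 (-0.04) and MEIS1 (-0.04) had changes below 0. The part of these markers in the results below was not tested.

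Of the 10 transporter RNAs, 6 fell with sh-circMYBL2 and none rose. SLC7A11, SLC7A5 and SLC3A2 fell most, to between 0.398 and 0.556 of the level with sh-NC, and SLC7A1, SLC38A2 and SLC38A1 fell to about 0.70 of it. SLC43A1, SLC1A5 and SLC1A4 were lower and SLC7A6 was higher, by amounts that did not pass the threshold. Called means an adjusted p under 0.05 from limma (two-sided, Benjamini-Hochberg over 12489 genes), and changes are log2 differences of FPKM + 1, sh-circMYBL2 minus sh-NC. Over all genes tested 3.96% were called lower and 4.92% higher. The median change was -0.50 for the 10 genes and -0.0037 for all genes. The 10 genes, and the lists below, were chosen with earlier results of these data known. These comparisons with all genes are therefore no independent test of them. In 9 of the 10 genes both sh-circMYBL2 libraries lay below both sh-NC libraries and in SLC7A6 above them, an arrangement found in 30.7% (below) and 30% (above) of all genes. In bulk RNA, fewer cells of a type and less RNA per cell cannot be told apart.

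**Figure D1:**
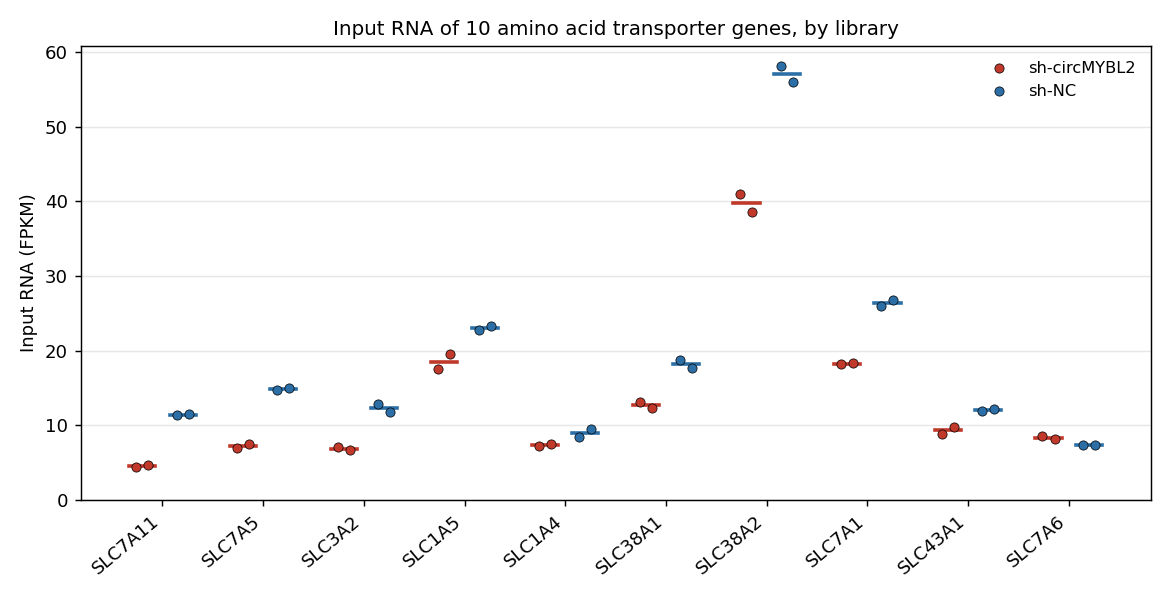
Input RNA (FPKM, linear axis from 0) of each transporter gene; points are single libraries, horizontal bars are means of 2 libraries, sh-circMYBL2 (red) left of sh-NC (blue). For SLC7A11 the sh-circMYBL2 libraries sit at 4.36 and 4.73 FPKM and the sh-NC libraries at 11.4 and 11.4 FPKM, while SLC7A6 alone has the red points above the blue.

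SLC7A11 (ENSG00000151012; chromosome 4, 138164097 to 138242349), the cystine/glutamate exchanger xCT, had 4.36 and 4.73 FPKM with sh-circMYBL2, against 11.4 and 11.4 FPKM with sh-NC. The sh-circMYBL2 libraries rested on 584 and 662 reads, and the mean was 60.2% lower than with sh-NC. The change of -1.17 (SE 0.06, adjusted p = 0.00830, limma) was the 75th lowest of the 12489 genes, the largest fall of the 10 transporters. SLC7A5 (ENSG00000103257; chromosome 16, 87830023 to 87869507), the leucine and large neutral amino acid exchanger LAT1, had 6.89 and 7.44 FPKM with sh-circMYBL2, against 14.7 and 15.01 FPKM with sh-NC. Its change was -0.96 (SE 0.05, adjusted p = 0.0102, limma). The groups of both genes stood far apart relative to their spread, with SDs of at most 0.391 FPKM. The pseudogene copy SLC7A5P1, to which reads of SLC7A5 could be assigned, had at most 1.29 FPKM in any RNA library.

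SLC3A2 (ENSG00000168003; chromosome 11, 62856109 to 62888860), the shared heavy chain, had 7.01 and 6.70 FPKM with sh-circMYBL2, against 12.9 and 11.8 FPKM with sh-NC. It fell by 0.76 on the log2 scale (SE 0.06, adjusted p = 0.0143, limma). SLC7A6 (ENSG00000103064; chromosome 16, 68264526 to 68301819), or y+LAT2, is a light chain that trades cationic for neutral amino acids together with sodium. It had 8.53 and 8.10 FPKM with sh-circMYBL2, against 7.33 and 7.34 FPKM with sh-NC, a change of 0.16 (SE 0.05, adjusted p = 0.134, limma). The groups did not overlap, but the difference did not pass the threshold. Its neighbour SLC7A6OS had 4.50 and 4.44 FPKM against 4.54 and 4.92 FPKM; whether counting used strand is not given in the sources used here, so overlapping reads of the pair are not separated with certainty.

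The light chains thus differed in their proportions. SLC7A6 made up 43.1% and 39.97% of the summed FPKM of SLC7A5, SLC7A6 and SLC7A11 with sh-circMYBL2, against 21.9% and 21.7% with sh-NC. SLC7A6 RNA was 1.24 and 1.09 times that of SLC7A5 with sh-circMYBL2, against 0.498 and 0.489 times with sh-NC. Their order was thus turned round in RNA, but not in the footprints given below. The sum of the 3 light chains over SLC3A2 was 2.82 and 3.02 with sh-circMYBL2, against 2.60 and 2.87 with sh-NC, ranges that overlap. SLC7A11 over SLC3A2 was 0.622 and 0.705 against 0.884 and 0.973, and SLC7A5 over SLC3A2 was 0.983 and 1.11 against 1.14 and 1.28. These ratios are per length and come from single libraries, with no test; with 2 libraries against 2 an exact permutation test cannot give a p below 0.333.

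**Figure D2:**
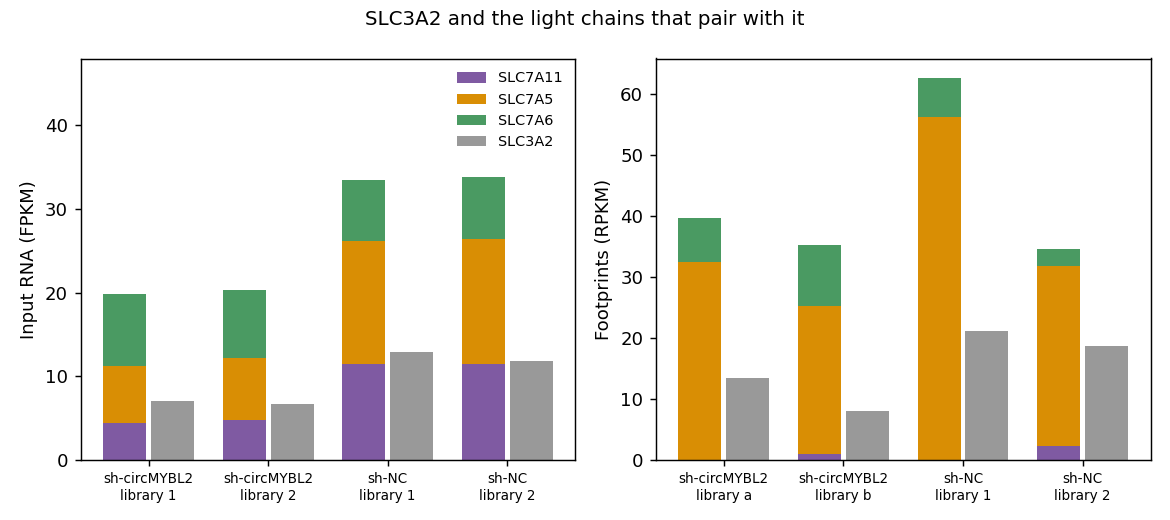
Left, input RNA (FPKM) and right, footprints (RPKM) in each library: stacked bars give the light chains SLC7A11, SLC7A5 and SLC7A6, grey bars the heavy chain SLC3A2, both from 0. In RNA the stack is 19.8 and 20.3 FPKM high with sh-circMYBL2 and 33.5 and 33.8 FPKM with sh-NC, and the SLC7A6 part is the larger share in the sh-circMYBL2 libraries.

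Among the sodium-coupled carriers, SLC38A2 and SLC38A1 (SNAT2 and SNAT1, which take up glutamine and other neutral amino acids) both fell. SLC38A2 (ENSG00000134294; chromosome 12, 46358188 to 46372773) was the most abundant of the 10 RNAs, at 41.0 and 38.6 FPKM with sh-circMYBL2 against 58.2 and 55.95 FPKM with sh-NC. Its change was -0.51 (SE 0.05, adjusted p = 0.0166, limma). SLC38A1 (ENSG00000111371; chromosome 12, 46183063 to 46269043) had 13.2 and 12.2 FPKM with sh-circMYBL2, against 18.7 and 17.7 FPKM with sh-NC, a change of -0.49 (SE 0.06, adjusted p = 0.0245, limma). The genes are neighbours on chromosome 12, and their means were 30.2% and 30.1% lower with sh-circMYBL2.

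SLC1A5 (ENSG00000105281; chromosome 19, 46774883 to 46788594), the glutamine exchanger ASCT2, had 17.5 and 19.5 FPKM with sh-circMYBL2, against 22.7 and 23.3 FPKM with sh-NC. SLC1A4 (ENSG00000115902; chromosome 2, 64988479 to 65023865), or ASCT1, carries alanine, serine, cysteine and threonine, and had 7.21 and 7.49 FPKM with sh-circMYBL2, against 8.40 and 9.47 FPKM with sh-NC. Neither difference passed, with changes of -0.30 (SE 0.06, adjusted p = 0.0659, limma) for SLC1A5 and -0.25 (SE 0.07, adjusted p = 0.116, limma) for SLC1A4. As SLC7A5 fell further than SLC1A5, SLC1A5 RNA was 2.54 and 2.62 times that of SLC7A5 with sh-circMYBL2, against 1.54 and 1.55 times with sh-NC.

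SLC7A1 (ENSG00000139514; chromosome 13, 29509414 to 29595688), the arginine and lysine transporter CAT1, had 18.2 and 18.4 FPKM with sh-circMYBL2, against 25.97 and 26.8 FPKM with sh-NC. It fell by 0.51 (SE 0.04, adjusted p = 0.0117, limma). SLC43A1 (ENSG00000149150; chromosome 11, 57484534 to 57515702), the facilitated carrier of large neutral amino acids LAT3, had 8.83 and 9.79 FPKM with sh-circMYBL2, against 11.9 and 12.1 FPKM with sh-NC. Its change of -0.34 (SE 0.06, adjusted p = 0.0523, limma) was just outside the threshold, although the groups did not overlap.

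The order of RNA levels among the 10 genes differed between the hairpins. With sh-circMYBL2, SLC38A2 was followed by SLC1A5 and SLC7A1, whose ranges overlap, then SLC38A1, SLC43A1 and SLC7A6. SLC1A4, SLC7A5 and SLC3A2 followed, each overlapping its neighbour, and SLC7A11 was lowest. With sh-NC, SLC38A2 was followed by SLC7A1, SLC1A5, SLC38A1 and SLC7A5, then by SLC3A2 and SLC43A1, whose ranges overlap, then SLC7A11 and SLC1A4, with SLC7A6 lowest. The 10 genes together held 132.7 and 133.0 FPKM with sh-circMYBL2, against 192.2 and 190.9 FPKM with sh-NC. They took 0.109% and 0.109% of protein-coding RNA reads with sh-circMYBL2, against 0.157% and 0.154% with sh-NC.

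The calls rest on all 4 RNA libraries: with any 1 left out, no gene of the whole table was called, and adjusted p of the 6 transporters was 0.0718 to 0.125 (limma), with every change keeping its sign. On reads recovered from the values, limma's voom called 9 of the 10 lower and SLC7A6 higher (adjusted p = 0.0321), against 12.5% of all genes lower and 13.7% higher. Among genes with a mean of at least 5 FPKM SLC1A5 (adjusted p = 0.0380, limma) and SLC43A1 (0.0287) also passed, and with protein-coding scaling SLC43A1 did (0.0447). Over all genes, that filter gave 593 of 6263 lower and 664 higher, and that scaling 580 of 12489 lower and 530 higher.

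Other transporters of amino acids were counted against the same background, 3.96% of all genes called lower and 4.92% higher. Of 41 further plasma membrane and lysosomal carriers of amino acids, 11 reached the mean of 1 FPKM needed for the test. Their median change was -0.03, and 1 was called lower and 0 higher. The 1 that fell was SLC7A2, a cationic amino acid transporter related to SLC7A1, at 6.25 ± 0.166 FPKM with sh-circMYBL2 and 9.29 ± 0.142 FPKM with sh-NC (SD, n = 2 each; change -0.50, adjusted p = 0.0185, limma). Of 13 mitochondrial carriers 10 were tested, none fell and SFXN1, a mitochondrial serine transporter, rose to 5.36 ± 0.0457 FPKM with sh-circMYBL2, against 3.97 ± 0.201 FPKM with sh-NC (change 0.36, adjusted p = 0.0476, limma).

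Of 20 genes that regulate transporter genes, in the ATF4, NFE2L2 and MYC pathways, 5 of the 18 tested were called lower and 0 higher (median change -0.18). Of all genes 3.96% were called lower and 4.92% higher. ATF4 itself had 36.1 and 35.9 FPKM with sh-circMYBL2, against 50.5 and 46.3 FPKM with sh-NC, a change of -0.42 (SE 0.05, adjusted p = 0.0284, limma). The other 4 were TRIB3 (change -1.94), a pseudokinase that binds ATF4, DDIT3 (-1.43) and ATF5 (-1.27), transcription factors of the same stress response, and CEBPG (-0.40), a partner of ATF4 on DNA. NFE2L2 had 10.9 ± 0.254 FPKM with sh-circMYBL2 and 12.9 ± 0.349 FPKM with sh-NC (change -0.23, adjusted p = 0.0598, limma). EIF2AK4, the kinase GCN2 that senses uncharged transfer RNA, had a change of 0.22 (adjusted p = 0.0733, limma), and MYC one of -0.12 (adjusted p = 0.244, limma). NFE2L2, EIF2AK4 and MYC therefore did not pass, but all 3 did with voom (adjusted p = 0.00138, 0.000779 and 0.0263). NFE2L2 also passed among genes with a mean of at least 5 FPKM (adjusted p = 0.0354, limma) and with protein-coding scaling (0.0492). For the whole list voom called 10 lower and 6 higher, against 12.5% and 13.7% of all genes. With no filter 2 were called lower, against 41 of 29835 genes.

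Genes that use or sense the transported amino acids gave mixed counts, set against 3.96% of all genes called lower and 4.92% higher. Of 13 cystine and glutathione genes 11 were tested and 1 fell: CTH, which makes cysteine from cystathionine, at 3.61 ± 0.339 FPKM with sh-circMYBL2 and 7.39 ± 0.432 FPKM with sh-NC (SD, n = 2 each). Its change was -0.86 (adjusted p = 0.0181, limma), while the median of that list was 0.02. Of 19 amino acid enzymes 5 of the 12 tested were called lower and 0 higher (median -0.16). They were PSAT1 of serine synthesis (change -0.88), GPT2 (-0.61) and GOT1 (-0.81), aminotransferases, ASS1 of arginine synthesis (-0.46) and BCAT1 of branched-chain amino acid breakdown (-0.25). With no filter 1 was called lower, and with voom 6 lower and 1 higher. Over all genes no filter called 41 of 29835 lower, and voom called 12.5% lower and 13.7% higher. GOT1 fell outside the rule for named genes and was chosen after its values were seen.

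Of 36 genes of amino acid sensing by mTORC1, the growth kinase complex, 32 were tested, 2 rose and 1 fell (median -0.02), shares near those of all genes (4.92% and 3.96%). NPRL2, a subunit of the GATOR1 complex that restrains mTORC1, rose to 7.37 ± 0.253 FPKM with sh-circMYBL2, against 3.07 ± 0.0374 FPKM with sh-NC (SD, n = 2 each; change 1.04, adjusted p = 0.0102, limma). RRAGD, a Rag GTPase, rose by 0.51, and DDIT4, a stress-induced inhibitor of mTORC1, fell by 1.19. With any RNA library left out no gene of these 6 lists was called.

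**Figure D3:**
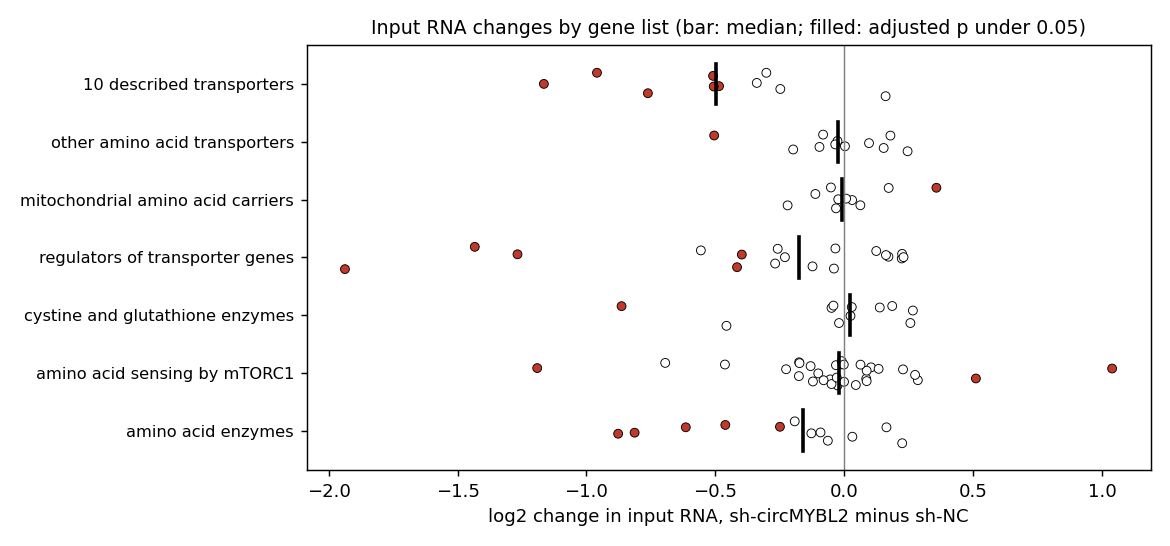
Log2 change in input RNA (sh-circMYBL2 minus sh-NC) of each tested gene by list, with black bars at the list medians and filled points for adjusted p under 0.05 (limma). The 10 transporters have their median at -0.50 and 6 filled points, all below 0, while 11 other amino acid transporters have theirs at -0.03 with 1 filled point; vertical scatter within a list is only for legibility.

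The RNAs most like SLC7A11 over the 4 RNA libraries, by the distance between centred log2(FPKM + 1) values among 5288 protein-coding genes, were DDIT4 (distance 0.122), VEGFA (0.125), ATF5 (0.158), MT-CYB (0.164) and FCER2 (0.174). All 5 were lower with sh-circMYBL2, by 1.19 to 1.32 on the log2 scale. SLC7A5 was 7th nearest at 0.206 and SLC3A2 33rd at 0.427. With 4 libraries in 2 groups this measure mostly ranks genes by the size of their difference between the hairpins.

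In footprints none of the 9 transporters tested was called in either direction. SLC3A2 was lower with sh-circMYBL2 in both libraries, SLC38A2 and SLC7A6 were higher in both, and the other 6 overlapped. Called means the same limma test on log2(RPKM + 1) over 9431 genes; 0% of these were called, with 1212 genes and none of the 9 at an unadjusted p under 0.05. Limma's voom on recovered reads called 56 genes and none of the transporters. Separation of the 2 groups was found in 10.9% of all genes with sh-circMYBL2 below and in 30.7% with sh-circMYBL2 above, against 1 and 2 of the 9. The median change was 0.56 for the 9 genes and 0.56 for all genes, and the median of all genes was 0.07 after quantile normalisation, so changes are also given relative to that of all genes.

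**Figure D4:**
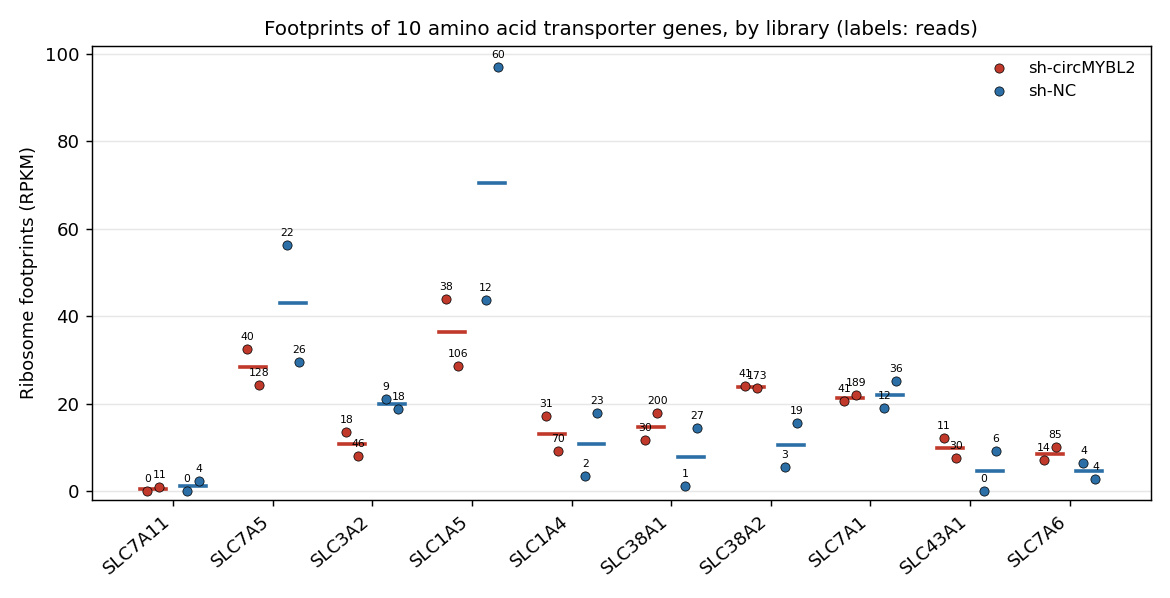
Ribosome footprints (RPKM, linear axis) of each transporter gene; points are single libraries labelled with the reads behind them, bars are means of 2 libraries, sh-circMYBL2 (red) left of sh-NC (blue). Points of 1 group lie far apart where reads are few, as for SLC38A1 with 27 reads and 1 read in the sh-NC libraries, while SLC38A2 with sh-circMYBL2 lies at 23.98 and 23.5 RPKM.

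SLC7A11 had almost no footprints: 0 and 1.02 RPKM (0 and 11 reads) with sh-circMYBL2, against 0 and 2.23 RPKM (0 and 4 reads) with sh-NC. Its mean was under 1 RPKM, so it was not tested. Its footprint RPKM over RNA FPKM, from group means, was 0.113 with sh-circMYBL2 and 0.0978 with sh-NC, where the medians of 8260 genes were 0.854 and 0.637. Of those genes 3.49% with sh-circMYBL2 and 15.9% with sh-NC had a lower ratio. The fall of its RNA could therefore not be followed in footprints at this depth.

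The other members of the heavy and light chain group had more reads. SLC7A5 had 32.6 and 24.2 RPKM (40 and 128 reads) with sh-circMYBL2, against 56.4 and 29.5 RPKM (22 and 26 reads) with sh-NC. SLC3A2 had 13.4 and 7.98 RPKM (18 and 46 reads) with sh-circMYBL2, against 21.1 and 18.7 RPKM (9 and 18 reads) with sh-NC. Both SLC3A2 libraries with sh-circMYBL2 were below both with sh-NC, whereas SLC7A5 overlapped. The change was -0.52 (SE 0.51, adjusted p = 0.695, limma) for SLC7A5 and -0.88 (SE 0.51, adjusted p = 0.604, limma) for SLC3A2, or -1.08 and -1.44 relative to the median of all genes and -0.52 and -1.04 relative to it after quantile normalisation. Pooled reads scaled to the deposited totals gave ratios of sh-circMYBL2 over sh-NC of 0.683 (95% exact counting interval 0.493 to 0.962) for SLC7A5 and 0.463 (0.291 to 0.755) for SLC3A2. These intervals cover counting error only, not the spread between libraries, and they also assume that reads are independent molecules. SLC7A6 had 7.13 and 10.1 RPKM (14 and 85 reads) with sh-circMYBL2, against 6.41 and 2.84 RPKM (4 and 4 reads) with sh-NC, so the sh-NC values rest on few reads. Its change was 0.83 (SE 0.68, adjusted p = 0.640, limma), and its ratio of pooled reads was 2.42 (1.18 to 5.75). Footprint RPKM of SLC7A6 was 0.219 and 0.415 times that of SLC7A5 with sh-circMYBL2, against 0.114 and 0.0962 times with sh-NC.

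For the neutral amino acid carriers the 2 sh-NC footprint libraries lay far apart. SLC38A2 had 23.98 and 23.5 RPKM (41 and 173 reads) with sh-circMYBL2, against 5.52 and 15.5 RPKM (3 and 19 reads) with sh-NC. SLC38A1 had 11.6 and 17.9 RPKM (30 and 200 reads) with sh-circMYBL2, against 1.21 and 14.5 RPKM (1 and 27 reads) with sh-NC. Footprints of SLC38A2 were higher in both sh-circMYBL2 libraries than in both sh-NC libraries, and those of SLC38A1 overlapped. The changes were 1.25 (SE 0.64, adjusted p = 0.554, limma) for SLC38A2 and 1.396 (SE 1.12, adjusted p = 0.634, limma) for SLC38A1, or 0.69 and 0.84 relative to the median of all genes and 1.07 and 0.78 relative to it after quantile normalisation. The ratios of pooled reads were 1.90 (1.22 to 3.09) and 1.60 (1.08 to 2.47). Ratios of pooled reads are not corrected for the median log2 change of all genes, 0.56.

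SLC1A5 had the highest mean footprint RPKM of the 10 with either hairpin, though its range overlapped that of SLC7A5. It had 44.0 and 28.6 RPKM (38 and 106 reads) with sh-circMYBL2, against 43.8 and 97.0 RPKM (12 and 60 reads) with sh-NC. Its change was -0.86 (SE 0.57, adjusted p = 0.627, limma), and it was -1.43 without sh-NC library 1 and -0.29 without sh-NC library 2. SLC1A4 had 17.3 and 9.06 RPKM (31 and 70 reads) with sh-circMYBL2, against 3.50 and 17.9 RPKM (2 and 23 reads) with sh-NC. The sh-NC libraries of SLC1A4 lay on either side of the sh-circMYBL2 libraries. SLC7A1 was nearly level, with 20.6 and 22.1 RPKM (41 and 189 reads) with sh-circMYBL2, against 19.0 and 25.2 RPKM (12 and 36 reads) with sh-NC. SLC43A1 had 12.0 and 7.63 RPKM (11 and 30 reads) with sh-circMYBL2, against 0 and 9.15 RPKM (0 and 6 reads) with sh-NC. The 95% interval of the change was -1.22 to 1.15 for SLC7A1 and -1.91 to 5.38 for SLC43A1, so neither fixes a direction. Ratios of pooled reads, with counting intervals as above, were 0.390 (0.292 to 0.526) for SLC1A5 and 0.789 (0.505 to 1.28) for SLC1A4. They were 0.935 (0.683 to 1.30) for SLC7A1 and 1.33 (0.563 to 3.84) for SLC43A1. For SLC1A4 this ratio lay below 1, whereas its log2 change was 0.56.

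By footprint RPKM over RNA FPKM, SLC7A5 and SLC1A5 stood highest among the 10. SLC7A5 had 3.96 with sh-circMYBL2 and 2.89 with sh-NC, and SLC1A5 had 1.96 and 3.06. SLC38A2, the most abundant RNA, was low at 0.597 with sh-circMYBL2 and 0.184 with sh-NC. Both tables divide by the same exon length of a gene, so the ratio sets footprint reads against RNA reads. RNA reads on untranslated parts count in it, and the share of those parts was not measured. That length was 9645 bases for SLC7A11, 6602 for SLC38A2, 4745 for SLC7A5 and 3332 for SLC1A5. The ratio therefore does not order genes by ribosomes on their coding part, which holds for SLC7A11 above too. The tables were scaled separately, so it is also no absolute number of ribosomes per RNA.

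Translational efficiency (TE) sets the change of a gene's footprints against the change of its RNA, and was tested as the interaction of hairpin and assay over all 8 libraries in 8260 genes. No transporter was called, while 5.05% of all genes were called higher and 0.266% lower. SLC38A2 had a TE change of 1.76 (SE 0.62, adjusted p = 0.190, limma), the only one of the 9 with an unadjusted p under 0.05 (0.0299). Of all 8260 genes 1618 had an unadjusted p under 0.05, so SLC38A2 does not stand out by it. The changes were 1.88 (SE 1.23) for SLC38A1 and 2.07 (SE 1.45) for SLC43A1, with adjusted p of 0.4999 and 0.530 from limma. SLC7A1 had 0.47, SLC7A5 0.44, SLC7A6 0.67 and SLC1A4 0.80, and SLC3A2 and SLC1A5 had -0.11 and -0.56. The median was 0.67 for the 9 and 0.57 for all genes. Relative to the median of all genes the TE change was 1.502 for SLC43A1, 1.31 for SLC38A1, 1.19 for SLC38A2, 0.23 for SLC1A4 and 0.10 for SLC7A6. It was -0.10 for SLC7A1, -0.14 for SLC7A5, -0.69 for SLC3A2 and -1.13 for SLC1A5. After quantile normalisation these relative values were 1.38 for SLC43A1, 1.33 for SLC38A1, 1.64 for SLC38A2, 0.49 for SLC1A4, 0.53 for SLC7A6, 0.51 for SLC7A1, 0.52 for SLC7A5, -0.19 for SLC3A2 and -0.41 for SLC1A5. SLC7A1 and SLC7A5 thus lay on opposite sides of the median of all genes under the 2 scalings.

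TE changes depended on which sh-NC footprint library was left out. Without sh-NC footprint library 1, the shallowest, the TE change was 1.09 for SLC38A2 and 1.14 for SLC7A6, but -1.12 for SLC1A5 and -0.23 for SLC1A4. Of the 10 transporters in that fit 4 had changes below 0. The median was then 0.34 for the transporters tested and 0.23 for all genes. Without sh-NC library 2 the change was 2.43 for SLC38A2, 3.29 for SLC38A1, 3.75 for SLC43A1, 1.84 for SLC1A4 and 0.67 for SLC7A1. It was 0.0074 for SLC1A5 and -0.020 for SLC7A5, and 2 of the 9 had changes below 0. The median was then 0.67 for the 9 transporters and 1.01 for all genes. In both fits the remaining sh-NC library was assumed to vary like the other groups, so calls from them are not read as results. Limma's voom on recovered reads called none of the 9.

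**Figure D5:**
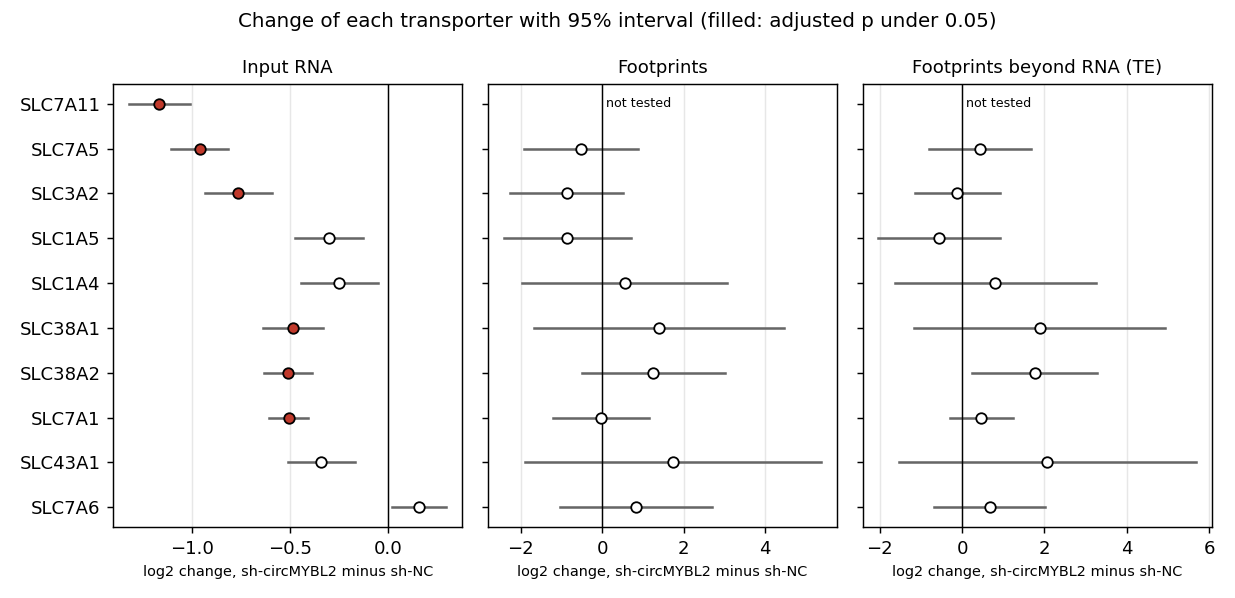
Log2 change with its 95% interval (limma) for each transporter in input RNA, footprints and TE, sh-circMYBL2 minus sh-NC; filled points have an adjusted p under 0.05 and horizontal scales differ between panels. RNA intervals are narrow, with 6 filled points below 0, whereas footprint intervals all include 0, and SLC7A11 was not tested in footprints or TE.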

How the data were processed

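Footprints and input RNA of MOLM-13 cells were measured in 8 libraries, 2 for each hairpin and assay, grouped by sample titles. The authors deposited footprints as RPKM and input RNA as FPKM, which are reads per gene length and per a scaling total. Per the submitters' processing notes, the build was hg38 and the tools were HISAT2, Bowtie, cutadapt, DESeq2 and featureCounts; the sources used here give no version, role or strand setting. Genes with a mean of at least 1 were fitted on log2(value + 1), which understates changes of low genes, by lmFit and a trended eBayes from limma (3.58.1, under R 4.3.3), each table alone and TE in 1 model of all 8 libraries. That model gives each gene 1 variance over both assays, so its p-values may be too small. P-values were adjusted over all genes of a comparison at 0.05. On simulated libraries of the same depth, with changes of 2-fold or more, the RNA fit called most of the changed genes, while the footprint and TE fits called few. The spread between simulated libraries was set by hand and not taken from these data, and smaller changes were not simulated. Alternatives were pseudocounts of 0.1 and 5, no filter or a mean of at least 5, quantile or protein-coding scaling, voom, assay weights in TE, each library left out and, in RNA, a replicate block.

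Read numbers were recovered from the steps of the RPKM and FPKM values, within 0.02 reads, for depth, counting intervals and a voom alternative; of microRNA values 98.2% to 99.1% came out whole, and voom called 3266 genes in RNA and 56 in footprints. Depth sets precision: 1 read on a typical transporter was a large step in footprints and a small one in RNA. The total a library was scaled to could differ from its reads: for the second sh-NC footprint library it was 185632, against 300379 reads. Named genes were the 10 members, up to 4 called genes with the smallest p of each of 6 lists, ATF4, EIF2AK4, NFE2L2 and MYC, and the 5 genes nearest to SLC7A11. Members and lists were chosen with earlier results of these data known. Promoters came from RefSeq (GRCh38.p14).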

Additional observations from a re-analysis of the deposited data

How the results depend on the processing

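In input RNA, no change of the 10 transporters reversed under 12 alternatives. The number called was 6, and it was 3 with no filter, 7 with protein-coding scaling, 8 with a mean of at least 5, 10 with voom, 0 with the replicate block and 0 to 0 with any 1 library left out; the block was tried although the replicate numbers were not shown to pair the libraries (correlation of same-numbered deviations 0.027). Over all genes the count was 1109, and it was 97 with no filter, 3266 with voom, 0 with the replicate block and 0 to 0 with 1 library left out. That count was 1257 of 6263 genes with a mean of at least 5, and 1110 with protein-coding scaling. Calls in the 6 lists moved likewise. Of regulators 5 were lower, and 10 lower and 6 higher with voom. With a mean of at least 5, 9 regulators were lower and 1 higher, and with no filter 2 were lower. Of enzymes 5 were lower, and 6 lower and 1 higher with voom and 1 lower with no filter. No gene of the lists was called with the replicate block. With fewer samples the leave-out fits have fewer degrees of freedom. For footprints the count over all genes was 0, and it was 56 with voom and 0 to 746 with 1 library left out, the highest without sh-circMYBL2 library a and 712 without b. For TE 0 transporters were called and 0 to 5 with 1 library left out. Over all genes TE gave 439 calls, and 853 with a pseudocount of 0.1, 2 with a pseudocount of 5, 42 with a mean of at least 5, 0 with quantile normalisation, 176 with voom, 1 with assay weights and 0 to 4953 with 1 library left out, 0 without any of the RNA libraries. The cause of these differences was not tested.

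Direction turned in footprints for SLC1A4 (-0.48 to 1.59 with 1 library left out), SLC38A1 (-0.0089 to 2.80) and SLC7A1 (-0.23 to 0.16, and 0.0048 with quantile normalisation), and in TE for SLC7A5 (-0.020 to 0.89), SLC3A2 (-0.46 to 0.23), SLC1A5 (-1.12 to 0.0074) and SLC1A4 (-0.23 to 1.84). The footprint reads, 1 to 60 a gene for these transporters in the sh-NC libraries, limit what could be detected.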
